A study of Homo sapiens with 12 samples.

Results

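MicroRNA miR-21 was followed across all 12 arrays of the study. It was taken by its name on the array, hsa-miR-21, and is 1 of 851 human microRNA names that the array lists. The cells were SUM159, a human triple-negative breast cancer line, grown as stable derivatives carrying a PLKO.1 lentiviral shRNA. One derivative carried an shRNA against Dicer, the RNase that trims microRNA precursors, and the other a scrambled control shRNA. The 4 groups, with 3 biological replicates each, were Dicer shRNA cells with metformin, control shRNA cells with metformin, Dicer shRNA cells with vehicle and control shRNA cells with vehicle. Metformin, a drug against type 2 diabetes, was given at 0.5 mM for 24 h, and the vehicle was PBS. All groups thus carried a stable shRNA, and untransduced cells were not analysed here. Dicer mRNA is not measured by these arrays, and the depth of the knockdown was not checked. The titles gave the groups, since the source names of both metformin groups disagree with them.

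The arrays detected 130 to 204 human names each, and 98 names were detected on all 12. One entry, miR-923, which is no longer listed as a microRNA, made up 77.7% to 84.3% of the human signal of an array. Both metformin groups lay on one slide and both vehicle groups on the other, and the effects of metformin and of the slide cannot be told apart. Within each slide the Dicer shRNA and control shRNA arrays sat at different positions, which likewise cannot be told apart from the line. Of the epithelial markers, miR-200a, miR-200b, miR-200c, miR-141 and miR-429 were not detected on any array, while miR-205 was detected on all of them.

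miR-21 is cut from the MIR21 hairpin, first by Drosha in the nucleus and then by Dicer in the cytoplasm, and its 5′ arm is the strand that is usually loaded into Argonaute. It is raised in many breast tumours, is induced through STAT3, AP-1 and NF-κB, and represses tumour suppressors such as PDCD4. The opposite strand of the duplex, miR-21* in the naming of this array, is normally degraded as the passenger. RefSeq (GRCh38.p14) places the mature strand at chr17:59841273-59841294 on the plus strand, inside the span of VMP1, an autophagy gene. The mature strand is printed because it is the molecule measured, and capitals mark the seed, bases 2 to 8, which pairs with targets. The hairpin, at chr17:59841266-59841337 on the plus strand, is printed because it is the substrate of Dicer, and there the capitals mark the mature arm, bases 8 to 29 of 72. miR-590-5p, at chr7:74191213-74191234 on the plus strand, is printed as the 1 other mature microRNA of the RefSeq table that holds the same seed.
hsa-miR-21-5p: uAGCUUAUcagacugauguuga
MIR21 hairpin: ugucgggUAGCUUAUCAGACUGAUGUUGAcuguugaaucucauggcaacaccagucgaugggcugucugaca
hsa-miR-590-5p: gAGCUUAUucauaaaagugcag
miR-590-5p is on the array and was detected on 0 of 12 arrays.

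miR-21 was detected on all 12 arrays, at strongly different levels. Its deposited signal, a brightness in arbitrary units, was 73.8, 93.9 and 53.6 in Dicer shRNA cells with metformin and 12.9, 23.9 and 12.7 in control shRNA cells with metformin. It was 141, 179.6 and 214 in Dicer shRNA cells with vehicle, against 1074, 1039 and 1202 in control shRNA cells with vehicle. The 3 arrays of control shRNA with metformin stood below all others, the 3 of control shRNA with vehicle above all others, and no group overlapped another. In a bulk sample, fewer cells of a kind and less RNA per cell cannot be told apart.

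The files state an error for each signal. For miR-21 it came to 7.51% to 8.21% of the signal in Dicer shRNA cells with metformin and 9.78% to 15.3% in control shRNA cells with metformin. It was 7.41% to 7.65% in Dicer shRNA cells with vehicle and 7.45% to 7.63% in control shRNA cells with vehicle. The spread between replicates was wider than this stated error in 3 of the groups and close to it in the fourth. The coefficient of variation of the deposited signal was 27.3% in Dicer shRNA cells with metformin, 38.9% in control shRNA cells with metformin, 20.4% in Dicer shRNA cells with vehicle and 7.78% in control shRNA cells with vehicle (n = 3 each). Replicate 2 of control shRNA with metformin, at 23.9, lay above the other two of the dimmest group.

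For comparisons the signals of each array were divided by a common brightness, the 75th percentile of the 98 names detected everywhere, and taken to log2. The scaled signal of miR-21 averaged 78.2 ± 20.1 in Dicer shRNA cells with metformin and 18.5 ± 7.49 in control shRNA cells with metformin (SD, n = 3 each). It averaged 171 ± 28.2 in Dicer shRNA cells with vehicle and 961 ± 95.5 in vehicle-treated control shRNA cells (SD, n = 3 each). The plot of scaled signals by array shows the same gaps. On the log2 scale the mean level was 6.26 in Dicer shRNA cells and 4.14 in control shRNA cells with metformin, and 7.40 in Dicer shRNA cells and 9.90 in control shRNA cells with vehicle. Sorted by level, control shRNA with metformin was thus lowest, followed by Dicer shRNA with metformin, Dicer shRNA with vehicle and control shRNA with vehicle. Each pair of neighbours in this order was called as different in limma (adjusted p 0.00013, 0.0116 and 2.79e-05). That fit uses 1 spread pooled over the 4 groups and not the spread of each pair. The log2 SD of miR-21 was 0.14 in control shRNA cells with vehicle and 0.54 in control shRNA cells with metformin. The calls with limma adjusted p 0.00013 and 0.0116 did not hold under every scaling, as given below. The middle pair, the Dicer shRNA groups, lay on different slides.

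**Figure D1:**
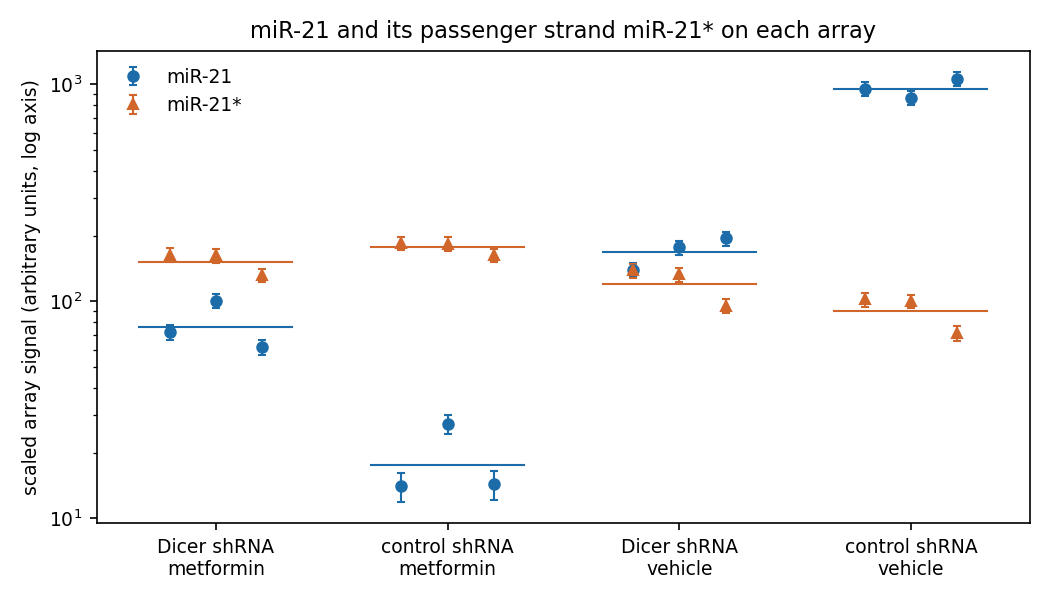
Scaled array signal (log axis) of miR-21 (circles) and miR-21* (triangles) on each of 3 arrays per group, with the error stated in the files as bars and the mean of the log2 values as lines. miR-21 averages 78.2, 18.5, 171 and 961 from left to right, and the groups do not overlap, whereas miR-21* stays between 71.4 and 185 on all 12 arrays.

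Among the names detected on an array, miR-21 changed from one of the brightest entries to a middling one. Among all 851 human names it ranked 39, 32 and 45 in Dicer shRNA cells with metformin and 101, 69 and 102 in control shRNA cells with metformin, where 1 is the brightest. It ranked 28, 22 and 20 in Dicer shRNA cells with vehicle, against 6, 6 and 5 in control shRNA cells with vehicle. Set against the names detected on the same array, it lay within the brightest 21.1% to 31.9% in Dicer shRNA cells with metformin and 45.7% to 63.5% in control shRNA cells with metformin. In the vehicle groups it lay within the brightest 11.1% to 18.8% in Dicer shRNA cells and 2.75% to 3.41% in control shRNA cells. Different probes bind with different strength, so ranks and shares describe array signal and not numbers of molecules.

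miR-21 held 0.0476%, 0.0582% and 0.0365% of the summed human signal in Dicer shRNA cells with metformin and 0.00671%, 0.0126% and 0.00693% in control shRNA cells with metformin. Its share was 0.0876%, 0.110% and 0.131% in Dicer shRNA cells with vehicle, against 0.788%, 0.761% and 0.939% in control shRNA cells with vehicle. The sum behind these shares is mostly miR-923. Without that entry the share of miR-21 averaged 0.270% ± 0.085 in Dicer shRNA cells with metformin and 0.0463% ± 0.0211 in control shRNA cells with metformin (SD, n = 3 each). It then averaged 0.671% ± 0.163 in Dicer shRNA cells with vehicle and 3.86% ± 0.55 in vehicle-treated control shRNA cells (SD, n = 3 each).

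**Figure D2:**
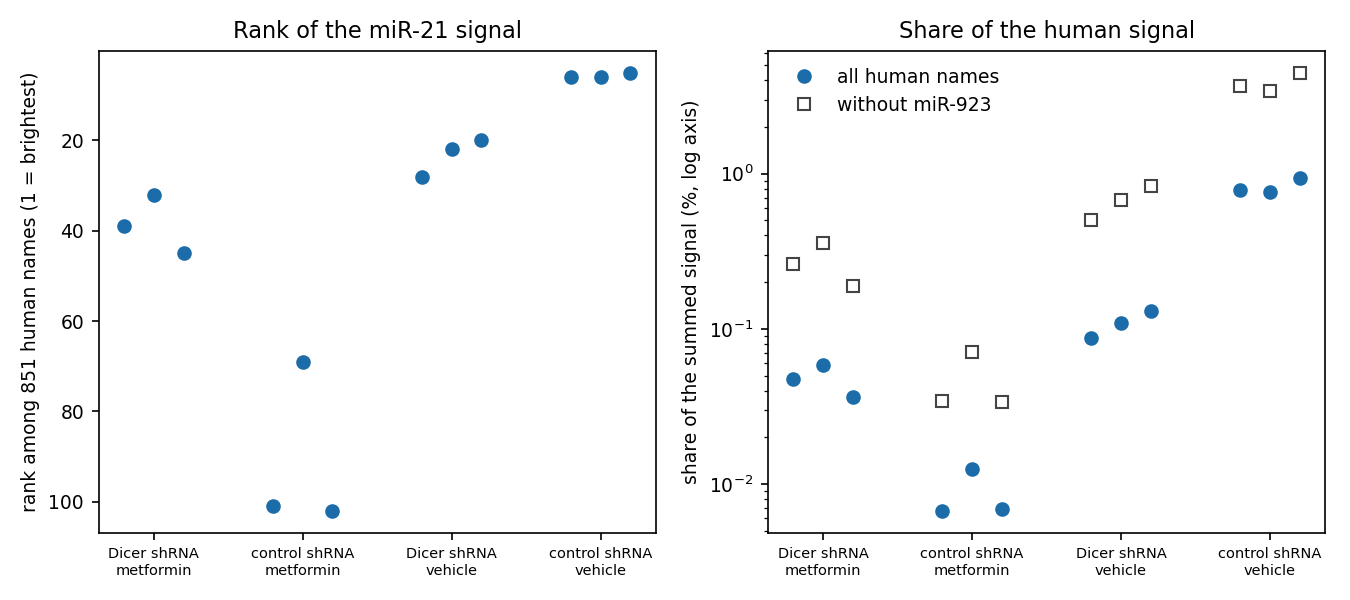
Left, rank of the miR-21 signal among 851 human names on each array (1 is the brightest, at the top). Right, its percentage of the summed human signal on a log axis, over all names (circles) and without miR-923 (squares). The ranks reach 102 in control shRNA cells with metformin and 5 in control shRNA cells with vehicle, and both shares order the groups alike.

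The entries nearest in brightness to miR-21 in control shRNA cells with vehicle did not share its course. miR-1207-5p, just dimmer there, had a mean scaled signal of 2577 ± 585 in Dicer shRNA cells with metformin, 3251 ± 381 in control shRNA cells with metformin, 1718 ± 204 in Dicer shRNA cells with vehicle and 940.3 ± 151 in vehicle-treated control shRNA cells (SD, n = 3 each). miR-720, now classed as a tRNA fragment and just brighter there, had 913 ± 76.4 in Dicer shRNA cells with metformin, 1453 ± 193 in control shRNA cells with metformin, 749 ± 80.1 in Dicer shRNA cells with vehicle and 1664 ± 51.1 in vehicle-treated control shRNA cells (SD, n = 3 each). miR-1202 was, like miR-1207-5p, brightest in control shRNA cells with metformin, at 4303 ± 647 (SD, n = 3).

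The first comparison asked how miR-21 differed with the Dicer shRNA in vehicle-treated cells. miR-21 fell by 2.50 ± 0.27 on the log2 scale (SE, 95% confidence interval -3.10 to -1.90, limma adjusted p = 2.79e-05), a signal 5.66-fold lower with the Dicer shRNA than with the control shRNA. All 3 Dicer shRNA arrays lay below all 3 control shRNA arrays. An exact two-sided permutation test gave p = 0.1, the smallest that 20 arrangements allow. Of the 208 names tested, 59.6% were called in this comparison, 21.6% higher and 38% lower, and in 63% the groups did not overlap. The calls were 45 higher and 79 lower, which was 67 to 39 with hur and 14 to 119 with viral scaling. A call as such is therefore common among the tested names. Among the 98 names detected on all 12 arrays, the fall of miR-21 was the largest, beside a median of 0.33 over those names. Among all 208 tested it ranked 17 from the lowest.

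The same comparison under metformin had the opposite sign. This sign, and the metformin comparisons and interaction below, rest on the titles, with which the source names of both metformin groups disagree. With the metformin groups exchanged the sign would turn. miR-21 would then be lower with the Dicer shRNA in both treatments. The interaction would be far smaller, and the average over both slides would be a clear fall. miR-21 was 2.12 ± 0.27 higher on the log2 scale with the Dicer shRNA than with the control shRNA (SE, 95% confidence interval 1.52 to 2.72, limma adjusted p = 0.00013), or 4.34-fold higher. All 3 Dicer shRNA arrays lay above all 3 control shRNA arrays, with an exact two-sided permutation p of 0.1, again the smallest possible. Here 38.9% of the 208 names were called, 13.9% higher and 25% lower, and groups did not overlap in 53.8%. The called names divided into 29 higher and 52 lower, which was 36 to 15 with viral and 13 to 138 with hur scaling. The median over the 98 names detected everywhere was -0.33, and miR-21 stood 4 from the highest among them. Of all 208 tested it stood 11 from the highest. Scaled to 4 control features named hur, detected on all arrays, the difference was 0.40 ± 0.21 (SE, limma adjusted p = 0.116), so the call does not hold under that scaling.

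In control shRNA cells, metformin arrays held far less miR-21 than vehicle arrays. miR-21 fell by 5.76 ± 0.27 on the log2 scale (SE, 95% confidence interval -6.36 to -5.16, limma adjusted p = 1.6e-08), or 54.2-fold, with an interval of 35.8 to 82.3. All 3 metformin arrays lay below all 3 vehicle arrays (exact two-sided permutation p = 0.1, the smallest possible). Most names were called here, 88% of 208, with 47.6% higher and 40.4% lower, and groups did not overlap in 91.8%. Calls numbered 99 higher and 84 lower, which was 139 to 45 with hur and 36 to 124 with viral scaling. Among the 98 names detected everywhere, whose median was 0.93, miR-21 had the largest fall. Among all 208 tested it ranked 7 from the lowest. Slide and metformin coincide in this comparison, as in the next, and miR-21 fell by 2.37 on the log2 scale when arrays were scaled to the hur features.

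In Dicer shRNA cells the difference between metformin and vehicle was smaller. miR-21 fell by 1.15 ± 0.27 on the log2 scale (SE, 95% confidence interval -1.75 to -0.54, limma adjusted p = 0.0116), or 2.21-fold. All 3 metformin arrays lay below all 3 vehicle arrays (exact two-sided permutation p = 0.1, the smallest possible), in a comparison where 24.5% of 208 names were called, 6.25% higher and 18.3% lower, and groups did not overlap in 37%. The calls, 13 higher and 38 lower, were 87 to 13 with hur scaling and 44 to 19 in the series matrix. The call was lost, with the same sign, when arrays were scaled to the hur features (-0.22, limma adjusted p = 0.447), in the authors' series matrix (-0.74, limma adjusted p = 0.0754), with only the compared groups in the fit (-1.15, limma adjusted p = 0.0521) and without replicate 3 of Dicer shRNA with metformin (-0.99, limma adjusted p = 0.0540). It was still the largest fall among the 98 names detected on all arrays in these scaled signals. Among all 208 tested, which include names undetected in some groups, miR-21 ranked 19 from the lowest.

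The difference between the knockdown change under metformin and that under vehicle was tested directly. For miR-21 this interaction was 4.62 ± 0.38 on the log2 scale (SE, 95% confidence interval 3.77 to 5.47, limma adjusted p = 2.9e-06). An exact two-sided permutation of lines within treatments gave p = 0.005, the smallest of 400 arrangements, or 0.03 after Benjamini-Hochberg adjustment over 6 comparisons. That permutation assumes no difference between the lines in either treatment. With both pairs fully apart in opposite directions its p was fixed in advance, so it adds no test of the interaction itself. Interactions were called for 76.4% of the 208 names, 37% above 0 and 39.4% below, or 77 and 82 names, which was 115 to 20 with viral and 40 to 137 with hur scaling. The value of miR-21 was the highest of the 98 names detected everywhere and stood 2 from the highest of the 208, after miR-29a at 4.92. A shift that a slide adds to both lines alike cancels in it, and a shift that differs between lines does not. Averaged over both slides, the opposite changes left -0.19 ± 0.19 (SE, 95% confidence interval -0.62 to 0.23, limma adjusted p = 0.456, exact permutation p = 0.755), while 51% of names were called there, 15.4% higher and 35.6% lower, or 32 and 74 names, which was 4 to 129 with median scaling and 53 to 53 after quantile normalization.

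**Figure D3:**
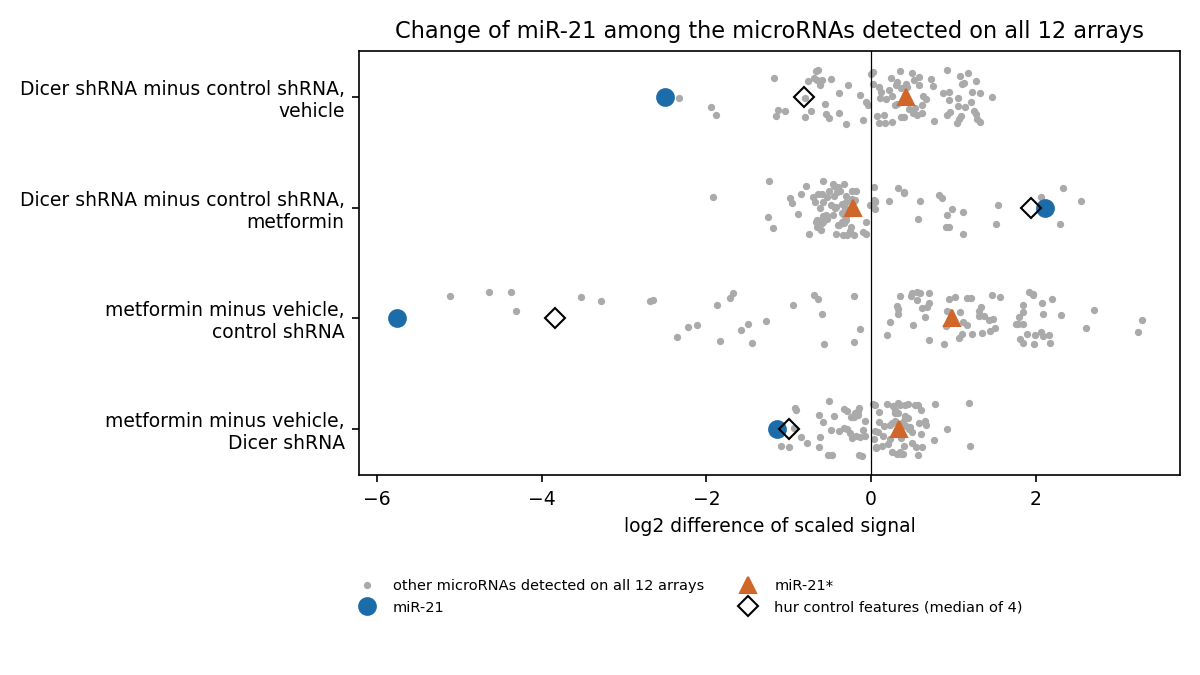
Log2 differences of the 98 names detected on all 12 arrays in the 4 comparisons, with miR-21 (circle), miR-21* (triangle), the other names (grey points, spread vertically to be seen) and the median of 4 hur control features (diamond). miR-21 is the lowest point at -2.50, -5.76 and -1.15 and lies among the highest at 2.12, and the diamond lies on the same side of 0 as miR-21 in each comparison.

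The control features named hur, whose target the sources used here do not give, moved with miR-21. Their median log2 difference for Dicer shRNA against control shRNA was -0.81 with vehicle and 1.95 with metformin, with all 4 features on that side. The metformin minus vehicle median was -3.84 in control shRNA cells and -0.999 in Dicer shRNA cells, again with all 4 below 0. The medians of the 10 viral probes detected on all arrays had the other sign. For Dicer shRNA against control shRNA they were 0.87 with vehicle, with 10 of 10 probes above 0, and -0.49 with metformin, with 9 below and 1 above 0. Between metformin and vehicle they were 1.38 in control shRNA cells, with 10 of 10 above 0, and 0.34 in Dicer shRNA cells, with 8 above and 2 below 0.

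The log2 signal of miR-21 minus the mean of the 4 hur features on the same array was -5.90, -5.57 and -5.73 in Dicer shRNA cells with metformin and -6.18, -5.69 and -6.53 in control shRNA cells with metformin. It was -5.70, -5.57 and -5.26 in Dicer shRNA cells with vehicle, against -3.80, -3.88 and -3.61 in control shRNA cells with vehicle. On this scale control shRNA cells with vehicle stood apart, and the other 3 groups overlapped.

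Scaling the arrays to the hur features also moved the median of all tested names, to 3.26 in metformin against vehicle of control shRNA cells, where it was 0.52 with the percentile scaling. Relative to the median of the tested names under the same setting, miR-21 lay between -7.05 and -5.63 in that comparison over all 10 scalings, series matrix included. It lay between -3.12 and -1.85 for Dicer shRNA against control shRNA with vehicle and between 2.21 and 2.66 with metformin. In Dicer shRNA cells, metformin against vehicle, it lay between -1.34 and -0.67. Apart from the floor, taking off this median removes any factor common to an array. Likeness of these values was thus fixed in advance, except for quantile normalization and the series matrix. Before any median was taken off, the signs of the 4 differences were the same under every scaling tried.

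**Figure D4:**
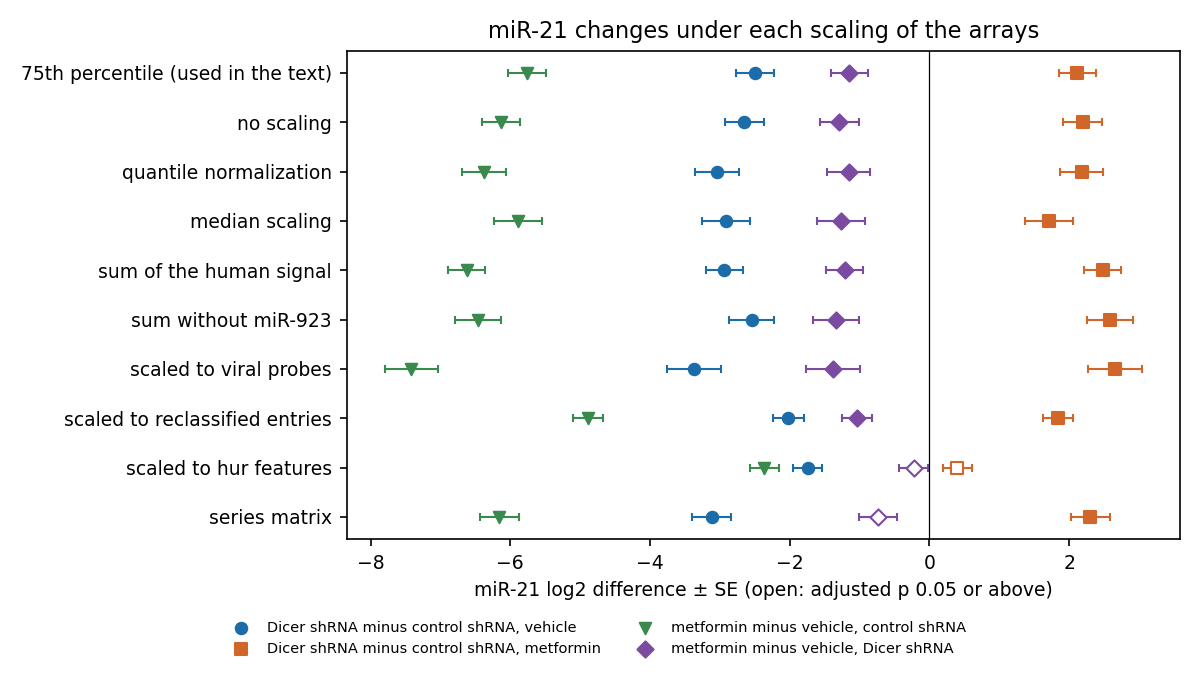
Log2 difference of miR-21 with its SE in the 4 comparisons under each scaling of the arrays, before any median is taken off. Filled symbols have a limma adjusted p under 0.05. The differences keep their sign throughout, and the open symbols are 0.40 and -0.22 under the hur scaling and -0.74 in the series matrix.

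The passenger strand miR-21* did not share the fall of the guide. Its deposited signal was 168, 152 and 115 in Dicer shRNA cells with metformin and 169.5, 162 and 144 in control shRNA cells with metformin. It was 140.0, 135 and 104 in Dicer shRNA cells with vehicle, against 115, 119.9 and 81.0 in control shRNA cells with vehicle. In 3 of the 4 pairs compared the groups overlapped, and the 3 arrays of control shRNA with metformin lay wholly above those of control shRNA with vehicle. There miR-21* was 0.98 ± 0.18 higher on the log2 scale with metformin (SE, limma adjusted p = 0.00051).

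The other differences of miR-21* did not pass the threshold. Dicer shRNA against control shRNA gave 0.43 ± 0.18 with vehicle (SE, limma adjusted p = 0.0686) and -0.22 ± 0.18 with metformin (SE, limma adjusted p = 0.394). Metformin against vehicle in Dicer shRNA cells gave 0.33 ± 0.18 (SE, limma adjusted p = 0.222). In each comparison the difference of miR-21* had the sign of the viral probe median. The metformin difference of miR-21* in control shRNA cells turned to -0.68 (limma adjusted p = 0.00748) with arrays scaled to the viral probes, so its direction depends on the scaling. A factor common to all names of an array cancels in a ratio of both strands. A shift that differs between names does not cancel. Metformin minus vehicle medians in control shRNA cells were -3.84 for the hur features and 1.38 for the viral probes, on the same arrays.

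The ratio of miR-21 to miR-21* signal was 0.440, 0.617 and 0.466 in Dicer shRNA cells with metformin and 0.0760, 0.148 and 0.0881 in control shRNA cells with metformin. It was 1.01, 1.33 and 2.04 in Dicer shRNA cells with vehicle, against 9.34, 8.67 and 14.8 in control shRNA cells with vehicle. The ratio was thus above 1 on every vehicle array and below 1 on every metformin array, and no group overlapped another. Treatment and slide coincide here too. On replicate 1 of Dicer shRNA with vehicle the signals, 141.2 and 140.0, differed by less than their stated errors, 10.6 and 10.4. Different probes bind with different strength, so the ratio does not compare numbers of molecules. The log2 ratio changed by -2.92 for Dicer shRNA against control shRNA with vehicle and by 2.33 with metformin, each with an exact two-sided permutation p of 0.1, the smallest possible. The interaction of the log2 ratio was 5.26 (exact two-sided permutation p = 0.005, 0.03 after adjustment over 6 comparisons). As for miR-21 alone, this p was fixed by the separation of both pairs and adds no test of the interaction itself. The array lists 143 named pairs of a guide and its star strand, and in 1 of them, miR-21, both strands were detected on all 12 arrays.

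In 3 pairs, that of miR-21 among them, each strand was detected on at least 10 arrays. Where a strand of the other two was missing on an array no ratio is given for that group. For let-7b, a tumour-suppressive microRNA that targets RAS and HMGA2, the mean log2 ratio of guide to passenger was 1.46 in Dicer shRNA cells with metformin. It was 3.31 in Dicer shRNA cells with vehicle and 5.17 in control shRNA cells with vehicle, and in control shRNA cells with metformin both strands were detected on 2 of 3 arrays. For miR-23a, which is cut from one transcript with miR-27a and miR-24, the mean was 3.67 in Dicer shRNA cells with metformin and 6.75 in control shRNA cells with vehicle, and in the other groups both strands were detected on 2 of 3 arrays.

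The microRNAs whose pattern was most like that of miR-21 were sought among the other 97 detected on all arrays, by Pearson's r of the log2 scaled signal over the 12 arrays. These r values mostly reflect 4 group levels, and all names share the array and its scaling. The highest were miR-24 (r = 0.996), miR-23a (r = 0.992), miR-1287 (r = 0.983), miR-92a (r = 0.982) and miR-320d (r = 0.977). Of the 97, 15 had r above 0.9 and 38 had r below -0.9, with a median of -0.78, and miR-21* had -0.87. With the group means taken off, r was 0.922 for miR-24, 0.660 for miR-92a, 0.446 for miR-23a, 0.163 for miR-1287 and 0.132 for miR-320d. miR-24 thus also followed miR-21 among the replicates of a group.

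The mature sequences of the 4 that the RefSeq table (GRCh38.p14) matched are printed to set their seeds, in capitals, beside that of miR-21.
hsa-miR-24-3p: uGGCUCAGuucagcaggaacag
hsa-miR-23a-3p: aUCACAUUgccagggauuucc
hsa-miR-92a-3p: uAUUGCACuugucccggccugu
hsa-miR-1287-5p: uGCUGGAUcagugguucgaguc
The 4 seeds differ from each other and from the seed of miR-21. hsa-miR-24-3p lies at chr9:95086064-95086085 on the plus strand and chr19:13836289-13836310 on the minus strand, hsa-miR-23a-3p at chr19:13836595-13836615 on the minus strand, and none of the 4 is on the chromosome of MIR21.

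miR-24 had scaled signals of 50.1 to 82.3 in Dicer shRNA cells with metformin and 11.5 to 23.1 in control shRNA cells with metformin. Its range was 125 to 159.7 in Dicer shRNA cells with vehicle and 526 to 591 in control shRNA cells with vehicle. Between Dicer shRNA and control shRNA, miR-24 changed by -1.95 with vehicle (limma adjusted p = 8.4e-05) and by 2.07 with metformin (limma adjusted p = 9.69e-05). Between metformin and vehicle it changed by -5.11 in control shRNA cells (limma adjusted p = 1.89e-08) and by -1.10 in Dicer shRNA cells (limma adjusted p = 0.0104). miR-23a changed by -1.88, 1.51, -4.32 and -0.92 in the same 4 comparisons.

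The lowest r values belonged to miR-1275 (r = -0.992), miR-874 (r = -0.990) and miR-939 (r = -0.986). miR-1275 had scaled signals of 3128 to 3817 in Dicer shRNA cells with metformin and 7346 to 8541 in control shRNA cells with metformin. Its range was 1852 to 2483 in Dicer shRNA cells with vehicle and 661 to 932 in control shRNA cells with vehicle, a mirror image of miR-21. In control shRNA cells miR-1275 and miR-21 were far apart in brightness with metformin and near each other with vehicle. The mean of the hur features had r = 0.965 with miR-21 over the 12 arrays.

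**Figure D5:**
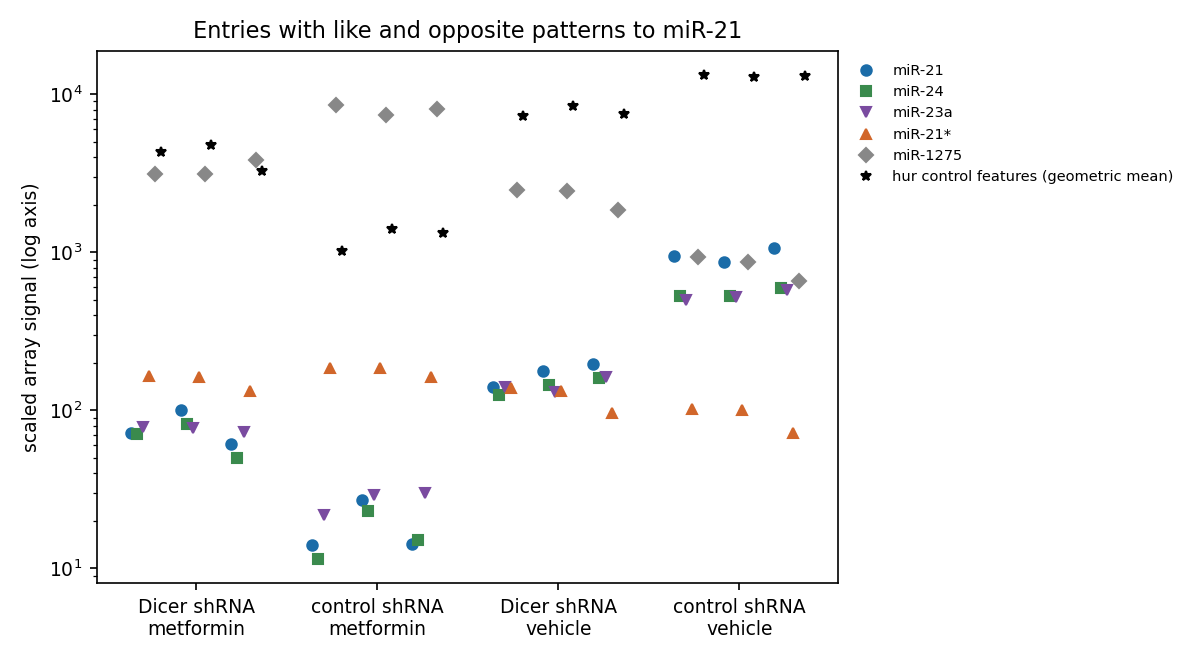
Scaled array signal (log axis) on each array, replicates side by side within a group, of miR-21, of miR-24 and miR-23a with like patterns, of the passenger miR-21*, of miR-1275 with the opposite pattern, and of the mean of 4 hur control features. miR-21, miR-24 and miR-23a are lowest in control shRNA cells with metformin and highest in control shRNA cells with vehicle, while miR-1275 is highest where they are lowest.

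Of 8 listed microRNAs induced, like miR-21, through STAT3, AP-1 or NF-κB, 6 could be tested. Over all 208 names tested, the shares called higher and lower were 21.6% and 38% for Dicer shRNA against control shRNA with vehicle and 13.9% and 25% with metformin. For metformin against vehicle they were 47.6% and 40.4% in control shRNA cells and 6.25% and 18.3% in Dicer shRNA cells. Members of the lists that follow are to be read beside these shares. For Dicer shRNA against control shRNA, 0 rose and 5 fell with vehicle (median log2 difference -0.87, beside 0.00 over all names tested) and 4 rose and 1 fell with metformin (median 1.58 beside -0.24). With metformin against vehicle, 1 rose and 5 fell in control shRNA cells (median -3.95 beside 0.52), and 0 rose and 5 fell in Dicer shRNA cells (median -0.89 beside 0.00). Of the 6, 1 had a group with no detection in the comparison under metformin and in that of control shRNA cells. miR-222, a repressor of the cell cycle brake p27, changed in the same directions as miR-21, with -0.69 ± 0.13 and 2.05 ± 0.13 for Dicer shRNA against control shRNA with vehicle and with metformin (SE). Its metformin minus vehicle difference was -3.52 ± 0.13 in control shRNA cells (SE). miR-181b, induced by STAT3, gave 0.02 ± 0.14 for Dicer shRNA against control shRNA with vehicle (SE, limma adjusted p = 1), where miR-21 fell. miR-181b rose by 1.11 ± 0.14 in the same comparison under metformin (SE, limma adjusted p = 0.000139).

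Of 21 microRNAs on the array listed as oncogenic or pro-invasive in breast tumours, 14 could be tested. A name undetected in some groups was tested only because it was detected in another, so its fall against the floor is partly built into the filter, and the counts support nothing. For Dicer shRNA against control shRNA with vehicle, 0 rose and 14 fell, 3 of them with an undetected group (median -2.70 beside 0.00). Under metformin 5 rose and 1 fell, while 6 were undetected in both groups (median 0.37 beside -0.24). In control shRNA cells, metformin against vehicle, 1 rose and 13 fell, and 9 of the 14 had an undetected group (median -4.15 beside 0.52). In Dicer shRNA cells 0 rose and 7 fell, and 6 had an undetected group (median -0.71 beside 0.00). miR-221 and miR-222, which were detected on all 12 arrays, changed by -1.05 ± 0.30 and -0.69 ± 0.13 for Dicer shRNA against control shRNA with vehicle and by 2.33 ± 0.30 and 2.05 ± 0.13 with metformin (SE).

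Of 26 microRNAs listed as tumour-suppressive in the breast, 13 could be tested, under the same limit. For Dicer shRNA against control shRNA with vehicle, 0 rose and 13 fell, 5 of them with an undetected group (median -1.76 beside 0.00). Under metformin 4 rose and 1 fell, and 7 were undetected in both groups, which puts the median at 0.00. In control shRNA cells, metformin against vehicle, 0 rose and 13 fell, 8 of them with an undetected group (median -3.05 beside 0.52). In Dicer shRNA cells 0 rose and 5 fell, and 5 were undetected in both groups (median -0.29 beside 0.00). The 4 other microRNAs listed as acting on PDCD4 were not detected on any array.

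Of 10 names since withdrawn or reclassified as fragments of other RNAs, 8 could be tested, and none of them had an undetected group. Between Dicer shRNA and control shRNA, 1 rose and 5 fell with vehicle (median -0.67 beside 0.00), and 4 rose and 4 fell with metformin (median 0.13 beside -0.24). Between metformin and vehicle, 2 rose and 5 fell in control shRNA cells (median -0.98 beside 0.52), and 1 rose and 2 fell in Dicer shRNA cells (median -0.21 beside 0.00). These medians have the signs of the miR-21 changes and are smaller. The brightest of these entries, miR-923, had the opposite sign in each comparison (0.53, -0.34, 0.90 and 0.04 in the same order).

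Levels of cell type markers also differed between the groups, and the sums that follow are of unscaled, deposited signal over detected names. Of the 6 epithelial markers miR-205 was the 1 detected, at 66.7 to 98.3 in Dicer shRNA cells with metformin, 97.1 to 118 in control shRNA cells with metformin, 125 to 141 in Dicer shRNA cells with vehicle and 715 to 742 in control shRNA cells with vehicle. After scaling, the log2 difference of miR-205 was -2.33 for Dicer shRNA against control shRNA with vehicle (limma adjusted p = 1.29e-07) and -2.36 for metformin against vehicle in control shRNA cells (limma adjusted p = 3.82e-08). With the Dicer shRNA under metformin, where miR-21 was higher, miR-205 was lower, at -0.43 (limma adjusted p = 0.0232). Metformin against vehicle in Dicer shRNA cells gave -0.46 for miR-205 (limma adjusted p = 0.0275). Of 7 blood cell markers, 0 were detected in Dicer shRNA cells with metformin and 2, miR-486-5p and miR-223, in control shRNA cells with metformin, at a summed signal of 13.9 to 18.0. None of the 7 was detected in either vehicle group, and miR-451, miR-144 and miR-150 were not detected on any array. Of 4 muscle markers, miR-1 and miR-206 were not detected, and the summed signal of the list was 7.90 to 18.3 in Dicer shRNA cells with metformin, 21.8 to 26.4 in control shRNA cells with metformin, 0 to 7.13 in Dicer shRNA cells with vehicle and 0 to 4.96 in control shRNA cells with vehicle. The 4 markers of mesenchymal-like breast lines, miR-221, miR-222, miR-100 and miR-125b, were detected in all groups, but miR-125b on 1 of 3 arrays of control shRNA with metformin. miR-221, miR-222 and miR-125b are also members of lists described above. Their summed signal was 172 to 252 in Dicer shRNA cells with metformin, 27.2 to 47.9 in control shRNA cells with metformin, 431 to 546 in Dicer shRNA cells with vehicle and 1082 to 1152 in control shRNA cells with vehicle, the order seen for miR-21. The part of these markers in the miR-21 values was not tested.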

How the data were processed

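RNA of 12 SUM159 samples was labelled with Cy3, and each sample had its own 1-colour Agilent array, per the labels. Per the file headers, the deposited values are a linear intensity for each name (the total gene signal), its error and whether the name was detected. The submitters' processing notes name Agilent Feature Extraction 9.1. Undetected names carry an intensity of 0.1. How background was treated is not given in the sources read. A deposited series matrix has log2 values of 221 names that run in the direction of the array intensity. How it was normalized and centred is unknown. The protocol in the labels names an mRNA kit.

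Array intensities were divided by the 75th percentile of 98 human names that were detected throughout, and rescaled to a common level (factors 0.836 to 1.15). A floor of 3.01 (log2 1.59) replaced lower values before log2. limma 3.58.1 (R 4.3.3) fitted 4 group means to the 208 names that were detected on 3 of 3 arrays in some group, with 8 residual and 1.85 prior degrees of freedom. Names with an adjusted p under 0.05 (Benjamini-Hochberg, over all 208) were called. The fit was checked on simulated data with independent noise. These had no floor, scaling shift or slide effect, so the check does not cover those. Exact permutation tests used the log2 signals (scipy 1.17.1, numpy 2.4.6, pandas 2.3.3, Python 3.11.15), and figures matplotlib 3.10.9. Ranks and shares used unscaled signals.

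The named genes are miR-21, miR-21*, names with the same seed, the 5 names most and 3 least like miR-21 by r, up to 4 bright members of each list, the 2 entries just brighter and 2 just dimmer in control shRNA cells with vehicle, and miR-923. The member and all lists were chosen with earlier results of these data known. Alternatives changed the scaling, the floor, the filter, the model and the arrays left out. Precision is limited by there being 3 arrays in a group. No replicate pair held identical values (root mean square z of their differences 1.08 to 2.65 stated errors). Sequences are from RefSeq tables (GRCh38.p14), and the table matched 4 of the 5 most like names. One further list of microRNAs is not reported here.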

Additional observations from a re-analysis of the deposited data

Results flagged for a closer look

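The change of miR-21 with the Dicer shRNA differed between treatments, with the metformin groups taken from the titles. With those groups exchanged both changes would be falls, and the difference between them would be far smaller. The change under metformin minus that under vehicle was 4.62 on the log2 scale (limma adjusted p = 2.9e-06), with all 3 Dicer shRNA arrays above control shRNA under metformin and all 3 below it with vehicle.

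The change of miR-21* with the Dicer shRNA under metformin minus that under vehicle was -0.64 ± 0.26 on the log2 scale (SE, limma adjusted p = 0.0429). It turned to 0.77 (limma adjusted p = 0.0255) with viral scaling and to 0.15 (limma adjusted p = 0.612) with the summed signal, and lost its call with the same sign under 12 of 27 alternatives, so its direction is not settled here. An exact two-sided permutation of lines within treatments gave p = 0.04, or 0.24 after adjustment over 6 comparisons. It assumes no difference between the lines in either treatment. With vehicle 2 of 3 Dicer shRNA arrays lay above all control shRNA arrays, and under metformin 2 of 3 lay below them.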

How the results depend on the processing

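Across 27 or 28 alternatives per comparison, miR-21 kept its direction and its call for Dicer shRNA against control shRNA with vehicle (-3.38 to -1.75), for metformin against vehicle in control shRNA cells (-7.42 to -2.37) and for the interaction (2.14 to 6.03). For Dicer shRNA against control shRNA under metformin the call was lost in 1, the hur scaling (0.40). For metformin against vehicle in Dicer shRNA cells it was lost with the hur scaling (-0.22), in the series matrix (-0.74) and with only the compared groups (-1.15). There, leaving out 1 array in turn gave -1.34 to -0.99, and the call was lost without replicate 3 of Dicer shRNA with metformin. The average over both slides passed the threshold with median scaling (-0.60), hur scaling (-0.67) and an offset of 16 (-0.47).

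miR-21* depended more on the scaling. For metformin against vehicle in control shRNA cells it turned to -0.68 with viral scaling and lost its call when scaled to the summed signal with miR-923 (0.11) or without it (0.27). Its average over slides turned to -0.30 with median scaling and passed with quantile normalization (0.46). Its interaction turned to 0.15 with the summed signal and 0.77 with viral scaling. That interaction lost its call without scaling (-0.42), with the sum without miR-923 (-0.13), in the series matrix (-0.48) and with all 263 names detected at least once (-0.64). It also lost its call without any 1 of 8 arrays (replicate 3 of control shRNA with vehicle, replicates 1 and 2 of Dicer shRNA with vehicle, replicates 1 and 2 of control shRNA with metformin, and each of Dicer shRNA with metformin), with a range of -0.81 to -0.48 over the arrays left out. For Dicer shRNA against control shRNA with vehicle, miR-21* passed with quantile (1.08), reclassified (0.91) and hur scaling (1.18) and array weights (0.33), and, in a range of 0.26 to 0.59, without replicate 3 of Dicer shRNA with vehicle. Under metformin it passed with median (-0.62), reclassified (-0.49) and hur scaling (-1.94). For metformin against vehicle in Dicer shRNA cells it passed with quantile (0.60) and hur scaling (1.25), in the series matrix (0.65) and with array weights (0.37).

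The number of names called for Dicer shRNA against control shRNA under metformin was 81, and it was 129 with median, 51 with viral and 151 with hur scaling, and 126 with array weights. For metformin against vehicle in Dicer shRNA cells it was 51, and 100 with hur scaling, 82 with array weights, 19 with only the compared groups and 32 to 71 on leaving out an array, the 32 being for replicate 3 of the Dicer shRNA metformin group. With only the 98 names detected on all 12 arrays in the fit, 64 were called for Dicer shRNA against control shRNA with vehicle and 44 with metformin, 86 and 28 for metformin against vehicle in control shRNA and Dicer shRNA cells, 72 for the interaction and 27 for the average over slides, from fewer names tested.

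The replicate numbers were not used to pair the arrays in the main fit. Of 18 pairs of equal number, 7 had a correlation of deviations over 0.1 (range -0.18 to 0.32). With 3 arrays per group, this check cannot exclude pairing. With a replicate block, miR-21 gave -2.50, 2.12, -5.76 and -1.15 in the 4 comparisons and changed no call, while miR-21* was then called in both comparisons of its Dicer shRNA vehicle group (0.43 and 0.33). The 75th percentile over all human names gave no scaling, because on every array it fell on undetected names. The depth limit here is 3 arrays per group. Names at the floor, unlike miR-21, have understated spread.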
